A study of Mus musculus with 4 samples.

Results

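The 39 sarcomere and contractile genes are a list of named genes covering troponins, myosin heavy and light chains, actins and tropomyosins, filament and Z-disc scaffold proteins, smooth muscle proteins and calcium handling proteins of the sarcoplasmic reticulum. They were chosen by symbol, with no measured value in the rule, and matched by Ensembl identifier across the gene tables. All 39 were found among the 27514 gene identifiers that the tables share.

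The study sorted living GFP-positive cells of the Tbx1Cre lineage from Swiss Webster mouse embryos and sequenced their RNA cell by cell on the 10x Genomics 3′ platform. Control (Ctrl) embryos were Tbx1Cre/+;Rosa26-GFPflox/+ and conditional knockout (cKO) embryos were Tbx1Cre/flox;Rosa26-GFPflox/+. For both, the tissue was the upper body at E8.5 and the pharyngeal apparatus and heart with the back at E9.5. Each of the 4 groups is 1 library of pooled embryos, so genotype, stage and library cannot be told apart and no p-value is given. The Cre sits in the Tbx1 locus and inactivates that copy, so Ctrl cells carry 1 working copy of Tbx1, and cKO cells lose the other only where Cre has acted. Only cells whose lineage switched on Tbx1 became GFP-positive, so heart cells from lineages without Tbx1 were sorted away.

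The libraries held 1434 (Ctrl E8.5), 1090 (cKO E8.5), 5453 (Ctrl E9.5) and 6266 (cKO E9.5) cells, with 25236185 to 104635590 unique molecular identifiers (UMIs, each 1 captured transcript) and medians of 17223, 23883, 16567 and 15887.5 UMIs per cell. Tbx1 itself stood at 86.4, 118, 103 and 134 UPM (defined below) in the same order, so it was not lower in the libraries labelled cKO, and a 3′ tag outside the deleted part would not record the deletion. Ribosomal protein genes took 23.5% of UMIs in Ctrl E9.5 and 28.8% to 29.1% in the other libraries. Library pairs shared 2 to 55 cell barcodes, at most 1.01% of the smaller library. Levels below are UMIs per 1000000 UMIs of shared genes (UPM) summed over a group of cells, values of 4 libraries are given in the order Ctrl E8.5, cKO E8.5, Ctrl E9.5 and cKO E9.5, and all intervals are 95% intervals that cover counting error only.

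Striated muscle contracts through the sarcomere, in which thick filaments of myosin pull on thin filaments of actin. Tropomyosin and the troponin complex (the calcium-binding C, inhibitory I and tropomyosin-binding T subunits) lie on the thin filament and let myosin bind only when calcium rises. Titin spans from the Z-disc, where thin filaments are anchored, to the middle of the thick filament. Embryonic heart muscle is known to express slow skeletal and smooth muscle isoforms of several of these proteins next to the cardiac ones, and smooth muscle uses its own actin, myosin and actin-binding proteins without sarcomeres. Many contractile genes carry CArG boxes, the DNA element bound by serum response factor.

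Of the members with a CArG box in the promoter window, 4 promoters are printed, each 250 bases before to 50 bases after the RefSeq gene start on GRCm38.p6. They are those of the atrial light chain Myl7 (chr11:5898733-5899032, minus strand), the cardiac actin Actc1 (chr2:114052826-114053125, minus strand), the skeletal actin Acta1 (chr8:123894726-123895025, minus strand) and the smooth muscle light chain Myl9 (chr2:156775214-156775513, plus strand). The capitals mark a CArG box, which begins 61, 47, 73 and 161 bases before the start, respectively.
Myl7: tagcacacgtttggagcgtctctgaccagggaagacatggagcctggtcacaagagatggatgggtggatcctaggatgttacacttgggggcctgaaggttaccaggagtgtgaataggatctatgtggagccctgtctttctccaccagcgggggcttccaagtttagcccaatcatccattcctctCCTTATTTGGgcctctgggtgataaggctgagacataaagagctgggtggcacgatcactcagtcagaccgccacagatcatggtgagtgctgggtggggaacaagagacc
Actc1: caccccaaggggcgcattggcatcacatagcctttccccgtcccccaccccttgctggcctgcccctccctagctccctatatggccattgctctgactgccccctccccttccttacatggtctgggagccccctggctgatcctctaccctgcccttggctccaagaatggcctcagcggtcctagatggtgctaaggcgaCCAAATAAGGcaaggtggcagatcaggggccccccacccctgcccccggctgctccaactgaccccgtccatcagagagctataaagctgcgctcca
Acta1: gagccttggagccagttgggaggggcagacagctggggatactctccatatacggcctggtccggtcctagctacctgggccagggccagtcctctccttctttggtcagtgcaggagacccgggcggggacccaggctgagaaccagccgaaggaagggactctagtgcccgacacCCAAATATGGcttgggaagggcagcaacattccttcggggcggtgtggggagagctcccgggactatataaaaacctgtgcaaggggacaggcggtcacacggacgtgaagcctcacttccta
Myl9: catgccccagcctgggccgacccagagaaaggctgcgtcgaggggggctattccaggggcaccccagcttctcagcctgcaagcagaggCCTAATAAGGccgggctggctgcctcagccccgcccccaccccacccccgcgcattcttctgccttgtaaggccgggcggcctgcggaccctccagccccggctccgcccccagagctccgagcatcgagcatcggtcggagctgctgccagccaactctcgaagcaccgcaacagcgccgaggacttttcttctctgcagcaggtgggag
Of the 39 genes, 34 had a promoter entry, and a CArG box was found in 8 of them: the 4 above and Ldb3, Myl3, Myom1 and Nebl. None was found in the windows of the strongly expressed Tpm1, Acta2 and Myl4. Over all 27025 genes with an entry, searched on both strands, 488 (1.81%) had one, and so did 535 (1.63%) of the 32851 windows, against 9 of 44 windows of these genes. A MEF2 site was found in the windows of Casq2, Mybpc3 and Ttn, against 3.70% of all genes, and in none of the windows with a CArG box among these genes. A match describes the letters of this window and is no evidence that a factor binds there.

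Cells were assigned to groups from marker genes outside the list, so no member chose the cells it is measured in. A heart-gated cell had a UMI of at least 3 of 8 heart markers (Nkx2-5, Myocd, Smyd1, Popdc2, Slc8a1, Nppa, Hspb7 and Hcn4). Muscle-gated cells had 3 of 8 branchiomeric and myogenic markers, second heart field (SHF)-gated cells 4 of 10 anterior and posterior SHF markers and mesenchyme-gated cells 4 of 6 markers, in that order of precedence after epithelial, endothelial, neural, neural crest and blood cells were set aside. The SHF is the progenitor field that adds cells to both poles of the heart tube. The heart gate held 32, 49, 201 and 124 cells, the SHF gate 144, 157, 251 and 297, the muscle gate 39, 31, 300 and 222 and the mesenchyme gate 286, 397, 2283 and 3533.

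All 8 heart markers had UMIs in the heart gate except Hcn4 in Ctrl E8.5, with a summed level of 929, 679, 932 and 744 UPM. The heart gate was not pure heart muscle: 24 of 33, 39 of 49, 133 of 203 and 74 of 127 cells that met it also met the SHF gate. Endothelial markers summed to 10.7 to 31.4 UPM and muscle markers to 83.2 to 117 UPM in heart-gated cells, with Myf5, Myod1 and Myog at 0 in all 4 libraries. Muscle-gated cells had UMIs of all 8 of their markers at E9.5 but of 5 and 4 at E8.5, when Myf5, Myog and Myf6 were at 0 in both libraries, so the label of muscle was not borne out by these myogenic factors at E8.5. Across whole libraries the 39 genes made up 0.149%, 0.145%, 0.162% and 0.122% of UMIs. Within the heart gate they made up 2.36%, 1.67%, 2.49% and 1.92%. The SHF gate gave 0.161%, 0.0925%, 0.165% and 0.107%, while muscle- and mesenchyme-gated cells lay between 0.0601% and 0.103%, close to the 0.0365% to 0.0813% of epithelial-gated cells, which should lack sarcomeres. The epithelial gate was not pure either, as it took precedence. Its cells that also met the SHF gate numbered 1, 4, 40 and 8, and those that also met the heart gate 0, 0, 2 and 2.

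**Figure D1:**
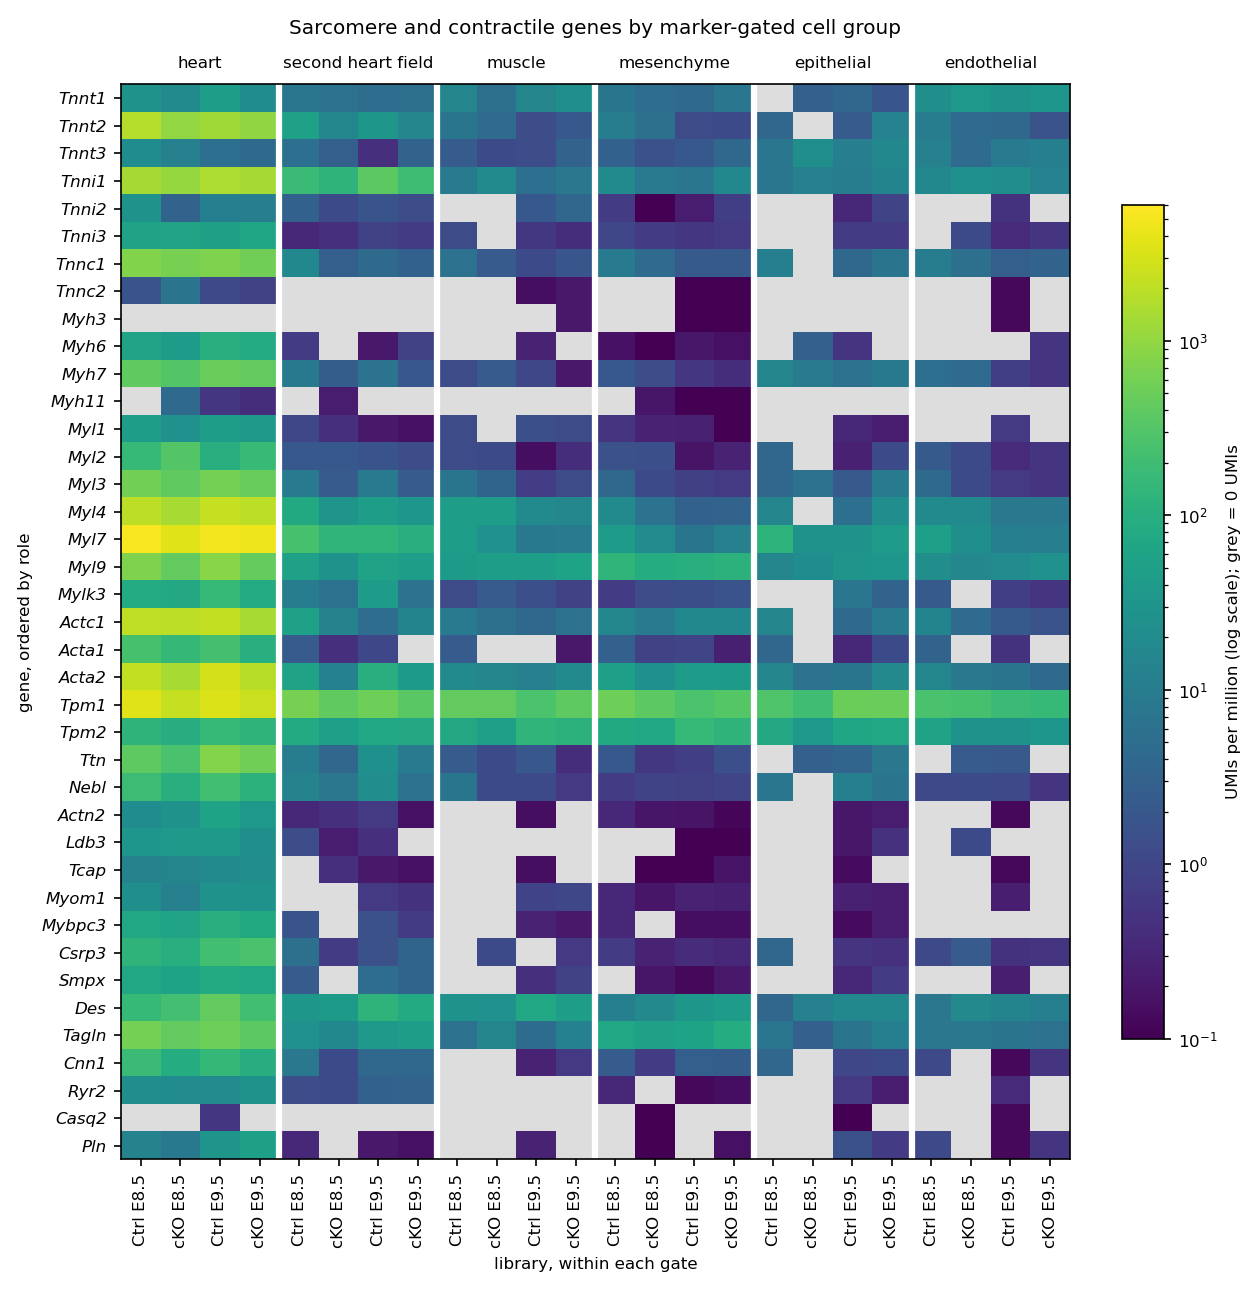
Level of each of the 39 genes (rows, ordered by role) in 6 marker-gated cell groups and 4 libraries (columns), in UPM on a log colour scale, with grey for 0 UMIs. Bright blocks fill the heart columns, while Tpm1, Tpm2, Myl9, Des and Tagln are present in every group.

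Myosin light chains led the heart-gated cells. Myl7, the atrial regulatory light chain, stood at 5322, 3459, 4981 and 4480 UPM and was the most abundant member by UMIs in all 4 libraries. Myl4, the atrial essential light chain, stood at 2048, 1407, 2315 and 2029 UPM, and Myl3, the ventricular essential light chain, at 579, 406, 592 and 461 UPM. Myl2, the ventricular regulatory light chain, was far lower, at 158, 316, 105 and 165 UPM, and was the one light chain with higher values in cKO at both stages. Myl1, a skeletal light chain, stood at 26.3 to 46.8 UPM, and Mylk3, the cardiac myosin light chain kinase, at 88.4, 77.1, 160 and 85.7 UPM. Because each UMI tags the 3′ end of a transcript, these UPM values count transcripts and are not scaled by length.

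Among the thin filament genes, Tpm1 (alpha-tropomyosin) stood at 3536, 2300, 3319 and 2539 UPM in heart-gated cells. Actc1, the cardiac alpha-actin, was at 2138, 2047, 2158 and 1398 UPM, and Acta2, the smooth muscle alpha-actin, at 2175, 1417, 3013 and 1857 UPM. Both actins were thus at like levels, with skeletal Acta1 at 246, 149, 235.5 and 101 UPM. Tnnt2, the cardiac troponin T, was at 1736, 1008, 1236 and 947 UPM, Tnni1, the slow skeletal troponin I, at 1354, 1048, 1556 and 1387 UPM and Tnnc1, the slow and cardiac troponin C, at 749, 624, 724 and 547 UPM. Tnni3, the adult cardiac troponin I, reached 55.5, 61.0, 52.0 and 65.4 UPM. The fast skeletal troponins were low: Tnnt3 stood at 4.22 to 20.8 UPM, Tnni2 at 3.39 to 27.7 UPM and Tnnc2 at 0.844 to 6.78 UPM, on 1 to 8 UMIs. Myl7, Tpm1, Acta2, Actc1 and Myl4 held 64.6%, 63.6%, 63.5% and 64.1% of all member UMIs of the heart gate, so the same 5 genes took nearly the same share in every library.

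Of the heavy chains, Myh7 (beta, slow) stood at 416, 312, 486 and 430 UPM and Myh6 (alpha, fast cardiac) at 62.4, 44.1, 102 and 88.6 UPM in heart-gated cells. Both genes lie next to each other and are close in sequence, so reads that counting could not place may be missing from both. Embryonic skeletal Myh3 had 0 UMIs in the heart gate of all 4 libraries, and smooth muscle Myh11 had 0, 5, 2 and 1. Titin (Ttn) stood at 394, 250, 769 and 554 UPM, nebulette (Nebl), a Z-disc actin-binding protein of heart, at 187, 103, 216 and 118 UPM, and desmin (Des), the muscle intermediate filament, at 161, 220, 429 and 218 UPM. Csrp3, a Z-disc LIM protein, stood at 128, 101, 215 and 253 UPM. Mybpc3 (cardiac myosin-binding protein C), Smpx, Actn2 (sarcomeric alpha-actinin), Ldb3, Tcap and Myom1 all lay between 11.9 and 100.3 UPM.

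Of the smooth muscle genes other than Acta2, Myl9 stood at 730, 433, 853 and 444 UPM, Tagln (transgelin) at 602, 426, 540 and 382 UPM and Cnn1 (calponin) at 180, 92.4, 150.5 and 93.7 UPM in heart-gated cells. All 3 were lower in cKO than in Ctrl at both stages. Calcium handling genes were low: Ryr2, the calcium release channel, at 20.3 to 27.9 UPM, and phospholamban (Pln), which restrains the calcium pump, at 13.9, 8.48, 30.3 and 51.1 UPM. Casq2, the calcium store protein, had 2 UMIs in Ctrl E9.5 and 0 in the other heart gates, where a sum of 0 allows up to 3 UMIs.

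Paralogue pairs, compared as shares of the pair's UMIs, showed which isoform the heart-gated cells used. Myl2 gave 2.88% (2.32% to 3.52%), 8.38% (7.58% to 9.23%), 2.06% (1.85% to 2.28%) and 3.54% (3.21% to 3.91%) of Myl2 and Myl7 UMIs, so the cKO share was above the Ctrl share at both stages with intervals that did not overlap. Acta1 gave 10.3% (8.77% to 12.1%), 6.79% (5.85% to 7.83%), 9.84% (9.21% to 10.5%) and 6.76% (5.95% to 7.63%) of Acta1 and Actc1 UMIs, lower in cKO at both stages. Tnni3 was 3.94%, 5.50%, 3.23% and 4.50% of Tnni3 and Tnni1, with overlapping intervals at E8.5 (2.71% to 5.51% and 4.33% to 6.88%) and separate ones at E9.5 (2.79% to 3.73% and 3.84% to 5.25%). Myh6 was 13.0%, 12.4%, 17.4% and 17.1% of Myh6 and Myh7, so the genotypes were alike within counting error at both stages. Myl3 was 22.05%, 22.4%, 20.4% and 18.5% of Myl3 and Myl4, Tpm2 3.55%, 3.96%, 4.51% and 4.72% of Tpm2 and Tpm1, and Acta2 50.4%, 40.9%, 58.3% and 57.0% of Acta2 and Actc1. Tnnt1, the slow skeletal troponin T, gave 1.57% to 3.52% of Tnnt1 and Tnnt2 in heart-gated cells but 91.7% (84.9% to 96.2%) and 92.1% (86.0% to 96.2%) in muscle-gated cells of Ctrl and cKO E9.5, where the pair had 109 and 127 UMIs. The share was also 78.3% and 86.2% in mesenchyme-gated cells of E9.5, so a high share was not particular to the muscle gate.

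**Figure D2:**
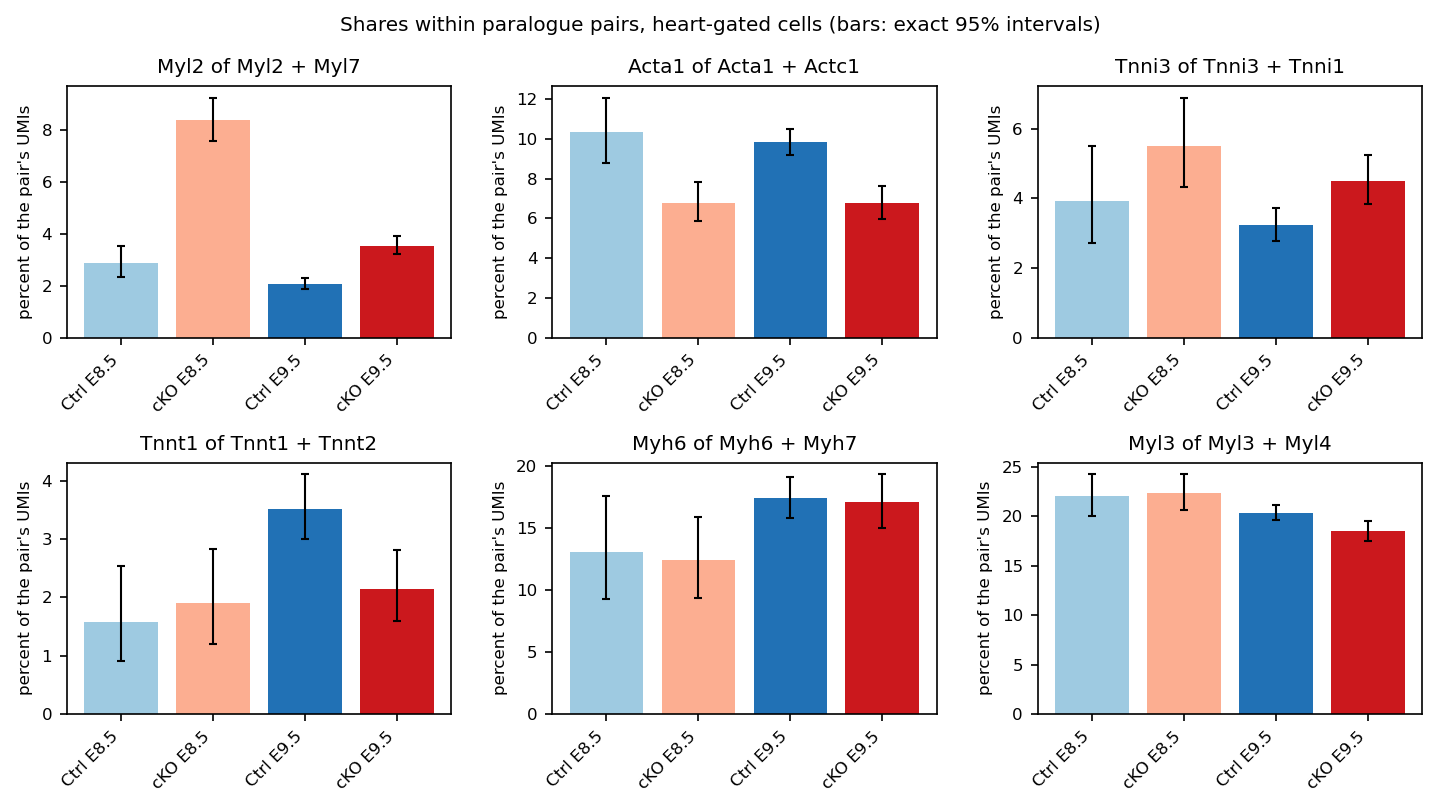
Share of the first-named gene in the UMIs of 6 paralogue pairs in heart-gated cells (percent, bars from 0, exact 95% intervals that cover counting error only), by library. The Myl2 share is higher and the Acta1 share lower in cKO at both stages.

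Cells within the heart gate differed widely. With each cell thinned to 10000 UMIs and shallower cells left out, the members' share of a cell's UMIs had medians of 1.76% (30 cells), 0.38% (47 cells), 1.125% (184 cells) and 0.635% (120 cells). The 10th and 90th percentiles were 0.242% and 5.96% in Ctrl E8.5 and 0.146% and 7.04% in Ctrl E9.5, and the highest cell reached 13.9%. Over all heart-gated cells, 19 of 32, 15 of 49, 111 of 201 and 54 of 124 drew at least 1% of their UMIs from the members, and these cells held 91.2%, 87.8%, 93.4% and 88.7% of the member UMIs. In the SHF gate the medians were 0.11%, 0.08%, 0.13% and 0.07%, and in the muscle and mesenchyme gates 0.05% to 0.08%. Thinned cells with a UMI of Tnni1 made up 96.7%, 95.7%, 98.4% and 99.2% of heart-gated cells, against 83.3%, 59.6%, 71.2% and 65.0% with a UMI of Tnnt2 and 66.7%, 42.6%, 61.4% and 57.5% with one of Actc1. In epithelial-gated cells of Ctrl E9.5 the shares were 4.06% for Tnni1, 1.54% for Tnnt2 and 3.36% for Actc1, at median depths of 18644 UMIs there and 15979 in the heart gate. Tnni1 was also found in 81.3% of SHF-gated cells of Ctrl E9.5, so its detection does not single out the heart gate.

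**Figure D3:**
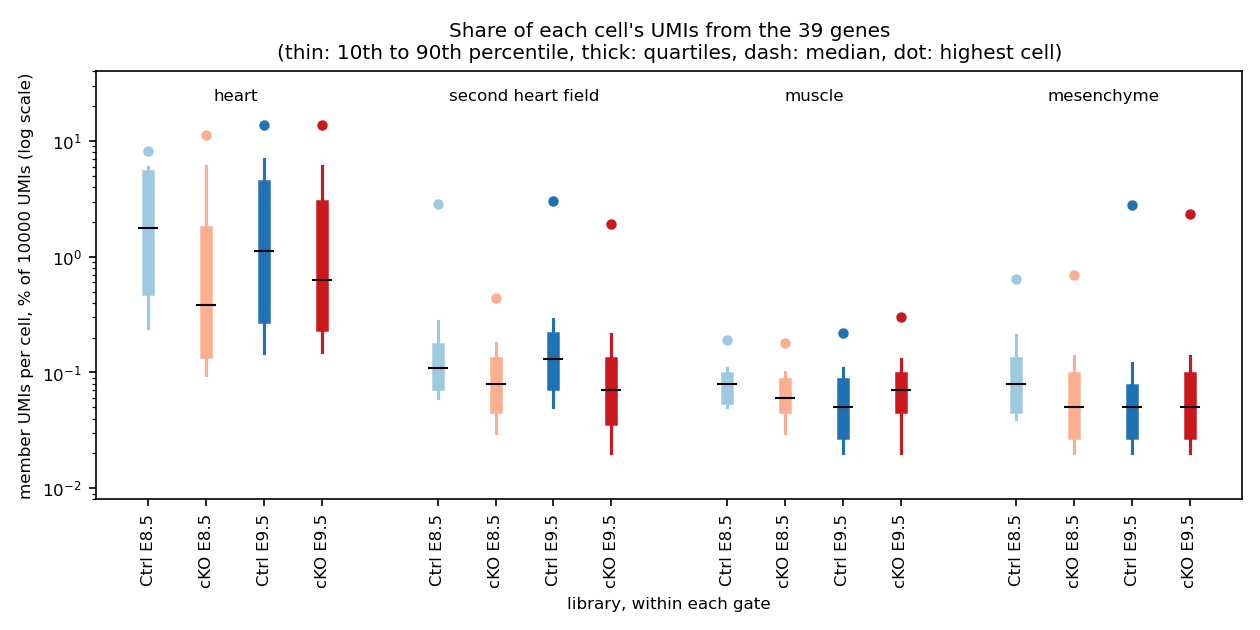
Share of each cell's UMIs from the 39 genes after thinning to 10000 UMIs (percent, log axis), by gate and library, with thin lines for the 10th to 90th percentile, thick lines for quartiles, dashes for medians and dots for the highest cell. Heart-gated cells span from under 0.2% to over 10%, and single cells far above the rest appear in the SHF and mesenchyme gates.

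Each gate was compared with mesenchyme-gated cells of the same Ctrl library. A gene was tested when it had at least 50 UMIs over both groups of cells, and called when its log2 ratio less the median of all tested genes was past 1 in size (2-fold). In heart-gated cells 21 of the 22 members tested were higher at E8.5 and 33 of 34 at E9.5, where 6.46% and 10.2% of all genes tested were called higher. Members such as Ttn (2663 heart and 30 mesenchyme UMIs at E9.5), Mybpc3 (347 and 6) and Tcap (65 and 2) reached 50 UMIs only through the heart gate. For these the filter left little room for another outcome, so the count is a description and no test. The steepest at E9.5 were Ttn (769 against 0.761 UPM, 1011-fold), Tnnt2 (1236 against 1.27 UPM, 974-fold) and Myh7 (486 against 0.558 UPM, 870-fold). Ldb3 rested on 1 UMI in mesenchyme-gated cells and gave a log2 difference of 10.58 (8.08 to 15.90), and Pln, with 0 UMIs there, was at least 399-fold higher against a floor of 3 UMIs. The shallowest called was Tnnt3 at 2.61-fold (5.49 against 2.11 UPM). It stood higher, at 11.1 and 9.55 UPM, in epithelial- and endothelial-gated cells, so its level does not single out the heart gate. Myl9 was at 8.44-fold and Tagln at 9.04-fold. Tpm2 alone was not called at either stage, at 130 against 79.4 UPM at E8.5 and 157 against 158.5 UPM at E9.5.

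Outside the heart gate the members fell into classes that are best seen as percent of the heart-gated level in Ctrl E9.5. Tnnt2 (0.103%), Ttn (0.0989%), Myh7 (0.115%), Myl4 (0.134%) and Myl7 (0.146%) were all below 0.2% of the heart level in mesenchyme-gated cells. The same genes were higher in epithelial-gated cells, at 0.583% for Myl7 and 0.194% for Tnnt2. These mesenchyme levels thus did not stand above those of cells that should lack sarcomeres, and their source was not tested. Of the 748 epithelial-gated cells, 1 held 162 of 425 Myl7 UMIs, and without it Myl7 was at 18.0 UPM there, still above the 7.25 UPM of mesenchyme. By contrast Tpm2 (101%), Myl9 (11.8%), Tagln (11.1%), Des (8.04%) and Tpm1 (8.03%) stayed well above the cardiac genes in mesenchyme, although Tpm1 was higher still in epithelial-gated cells (508 against 267 UPM). In the SHF gate Tpm2 was again highest, at 44.3%, followed by Des at 29.4%, Mylk3 at 27.1%, Tnni1 at 24.2%, Tpm1 at 15.9%, Ryr2 at 14.8%, Tnnt1 at 11.5% and Nebl at 10.3% of the heart level, while Myl7 was at 2.70% and Actc1 at 0.241%. Nebl and Mylk3 also had epithelial levels of 5.38% and 4.73% of the heart level. Tpm2 and Tpm1 stood at 42.7% and 15.3% in epithelial-gated cells, close to their SHF levels. Des (3.96%), Ryr2 (3.00%) and Tnni1 (0.677%) were well below their SHF levels there. Tnnt1 was at 8.49% in epithelial-gated and 61.3% in endothelial-gated cells. The SHF levels of Tpm2, Tpm1 and Tnnt1 were thus not particular to that gate.

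**Figure D4:**
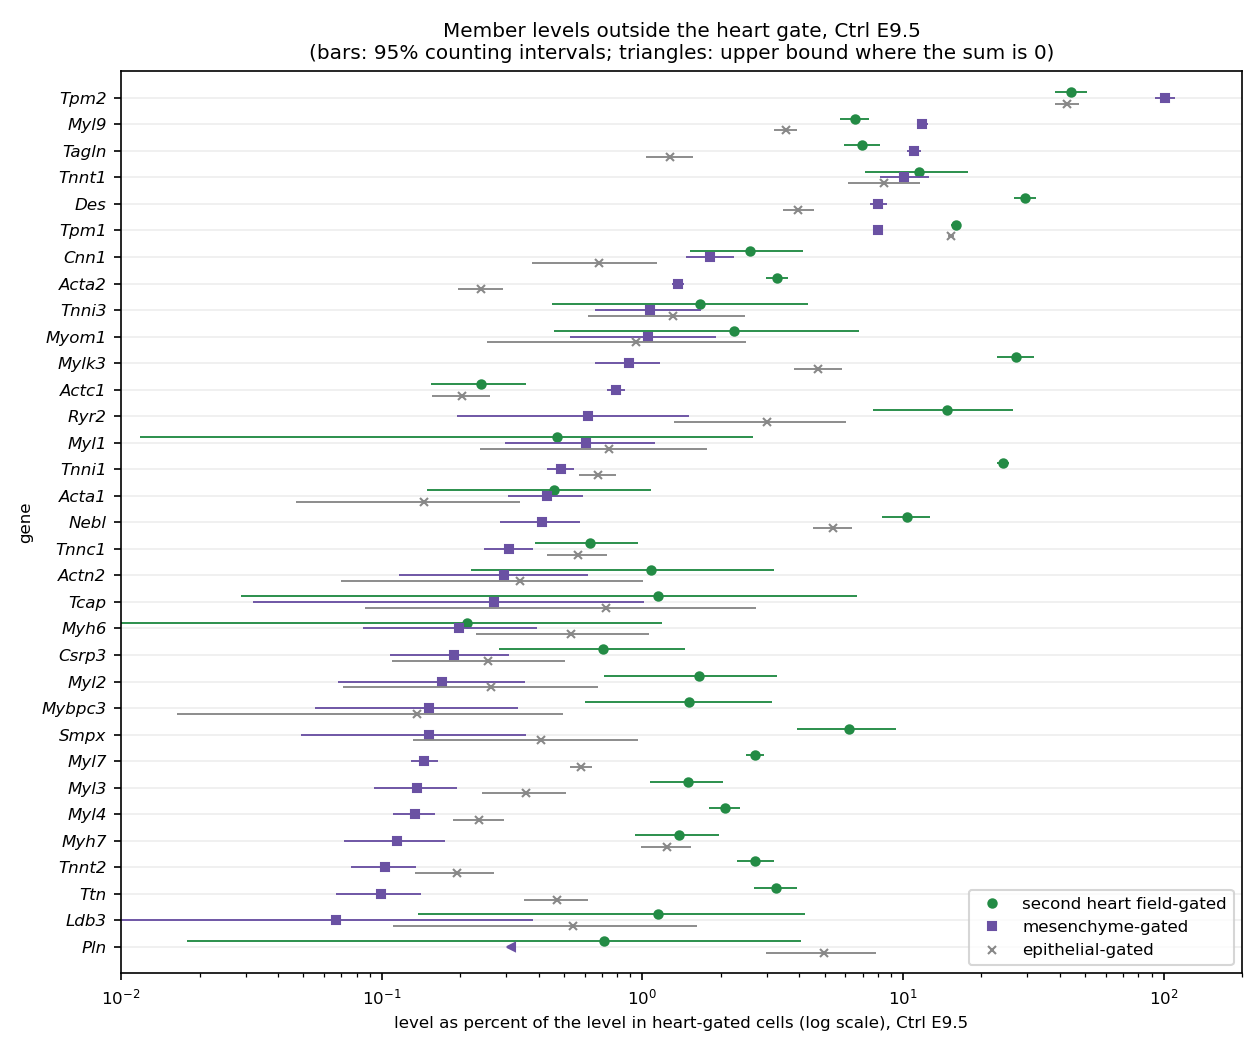
Level of each member with at least 50 UMIs in heart-gated cells of Ctrl E9.5, as percent of that heart level (log axis), in SHF-, mesenchyme- and epithelial-gated cells, with 95% counting intervals and a triangle for an upper bound. Des, Mylk3, Tnni1 and Nebl lie to the right in the SHF gate, while Tnnt2, Ttn and Myl7 in mesenchyme lie to the left of their epithelial values.

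In SHF-gated cells of Ctrl, 6 of 13 members tested at E8.5 and 13 of 20 at E9.5 were higher than in mesenchyme-gated cells, against 2.52% and 6.20% of all genes. At E8.5 these were Tnni1 (183.5 against 18.7 UPM, 9.80-fold), Myl7 (241.5 against 41.9 UPM, 5.76-fold), Tnnt2 (54.9 against 10.3 UPM, 5.33-fold), Myl4, Actc1 and Des. By E9.5 Tnni1 (376 against 7.58 UPM) was 49.6-fold higher, Ttn (25.1 against 0.761 UPM) 33.0-fold, Mylk3 (43.5 against 1.42 UPM) 30.7-fold, Tnnt2 26.5-fold, Nebl 25.1-fold and Myl7 18.5-fold, and Tpm1 lay just inside the threshold at a log2 difference of 1.01. Its SHF level of 528 UPM was close to the 508 UPM of epithelial-gated cells. Tnnt3, Actc1 and Tpm2 were lower in the SHF gate at E9.5, and Tagln and Myl9 at E8.5. At E9.5 Nebl (103 SHF and 35 mesenchyme UMIs) and Ttn (116 and 30) passed the minimum only through the SHF gate. Their calls carry the limit given for the heart gate. Single cells carried part of the SHF level: in Ctrl E8.5, 2 of 144 cells drew at least 1% of their UMIs from members and held 98 of 160 Actc1 UMIs, 70 of 161 Tnnt2 UMIs and 91 of 237 Myl4 UMIs. Without them Actc1 was at 21.4, Tnnt2 at 31.4, Myl4 at 50.3, Myl7 at 175 and Tnni1 at 170 UPM.

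Muscle-gated cells showed few members above mesenchyme. Myl4, Des and Tnnt1 were called higher at E8.5 (3 of 13 tested, against 2.0% of all genes) and the same 3 at E9.5 (3 of 16, against 4.06%). At E9.5 Myl4 stood at 18.9 against 3.09 UPM (6.09-fold), Tnnt1 at 15.0 against 4.57 UPM (3.28-fold) and Des at 70.0 against 34.5 UPM (2.03-fold). Tnnt1 was, however, at 27.6 UPM in endothelial-gated cells of the same library, above its muscle-gated level. Tagln, Cnn1, Actc1, Acta2 and Myl9 were lower than in mesenchyme at E9.5, by 12.5-fold for Tagln (4.79 against 59.7 UPM). Some genes of differentiated skeletal muscle were at or near 0: Myh3 had 0, 0, 0 and 1 UMIs, Acta1 2, 0, 0 and 1, Tnnc2 0, 0, 1 and 1 and Ldb3 0 in all 4 libraries. Others had UMIs at E9.5: Tnni2 had 14 (2.09 UPM) in Ctrl and 18 (3.76 UPM) in cKO, and Myl1 10 and 6. In mesenchyme-gated cells of these libraries Tnni2 stood at 0.228 and 0.786 UPM, and in epithelial-gated cells at 0.342 and 0.956 UPM. Of the other pathway genes, Myh8 had 18 UMIs (2.69 UPM) in muscle-gated cells of Ctrl E9.5. Cells with a UMI of Myf5, Myod1, Myog or Myf6 numbered 105 of 300 and 63 of 222 at E9.5, and in these Acta1 had 0 and 1 UMIs, while Des stood at 85.9 (74.3 to 98.7) against 61.7 (54.6 to 69.5) UPM in the other muscle-gated cells of Ctrl and at 62.0 (49.7 to 76.5) against 42.9 (36.2 to 50.5) in those of cKO.

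Mesenchyme-gated cells of E9.5 held a few cells rich in Tagln, Acta2 and Actc1. In Ctrl E9.5, 10 of 2283 cells drew at least 1% of their UMIs from members, and these held 814 of 2355 Tagln UMIs (34.6%), 778 of 1628 Acta2 UMIs (47.8%), 67 of 108 Cnn1 UMIs (62.0%) and 259 of 676 Actc1 UMIs (38.3%), but 0 of 286 Myl7 UMIs. In cKO E9.5, 13 of 3533 such cells held 1137 of 5665 Tagln UMIs (20.1%), 757 of 2450 Acta2 UMIs (30.9%) and 279 of 1045 Actc1 UMIs (26.7%), and 2 of 740 Myl7 UMIs. Smooth muscle Myh11 had 3 UMIs in the whole mesenchyme gate of each E9.5 library. The cells with at least 1% were picked by their member content, so their levels are a description and no cell type is named for them. Without them Tagln stood at 39.3 and 74.5 UPM and Acta2 at 21.7 and 27.9 UPM in Ctrl and cKO E9.5.

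From E8.5 to E9.5 in Ctrl, few members passed the 2-fold threshold in heart-gated cells. The median of all genes moved by 0.23 to 0.31 on the log2 scale between these libraries in the 4 gates, and changes are given relative to it. In the heart gate 2 of 34 members tested rose, against 7.23% of all genes, and 1 fell, against 2.84%. Des went from 161 to 429 UPM, a log2 change of 1.18 (0.877 to 1.499), Actn2 from 20.8 to 60.4 UPM, a change of 1.30 (0.47 to 2.28), and Tnni2 from 27.7 to 11.6 UPM, a change of -1.496 (-2.36 to -0.56). Actn2 passed the UMI minimum only through E9.5 (12 UMIs at E8.5 and 209 at E9.5). The heart gate of Ctrl held 576658 UMIs at E8.5 and 3461176 at E9.5. Pln, at 13.9 and 30.3 UPM, lay just outside the threshold at 0.90 (-0.13 to 2.15). Tnnt2 (-0.72), Myl2 (-0.83), Ttn (0.73) and Mylk3 (0.63) differed without a call, and 9 members were called higher with 1 marker fewer per gate.

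In SHF-gated cells 2 of 17 members rose (4.43% of all genes) and 4 fell (2.96%). Mylk3 went from 10.6 to 43.5 UPM, a log2 change of 1.76 (1.21 to 2.35), and Des from 33.8 to 126 UPM, a change of 1.62 (1.31 to 1.94). Mylk3 passed the UMI minimum only through E9.5 (31 UMIs at E8.5 and 201 at E9.5). Actc1 went from 54.6 to 5.20 UPM, a change of -3.68 (-4.36 to -3.05), Tnnc1 from 16.7 to 4.55 UPM (-2.16), Myl7 from 241.5 to 134.5 UPM (-1.13) and Myl4 from 80.85 to 47.9 UPM (-1.04), while Tnnt2 stopped just short at -0.99. Without the 2 Ctrl E8.5 cells described above, the E8.5 levels were 21.4 UPM for Actc1, 11.4 for Tnnc1, 175 for Myl7 and 50.3 for Myl4, to be set against the E9.5 levels above. Ctrl E9.5 also had 2 such cells of 251, which held 7.19% of the member UMIs of the gate, and without them Actc1 was at 4.14, Tnnc1 at 2.61, Myl7 at 114 and Myl4 at 39.6 UPM. Acta2 went from 51.1% (45.5% to 56.6%) to 95.02% (92.7% to 96.8%) of the UMIs of Acta2 and Actc1. Actc1 also stood at 14.5 and 2.29 UPM in endothelial-gated and 15.2 and 4.37 UPM in epithelial-gated cells of Ctrl E8.5 and E9.5. Tnnc1 stood at 10.0 and 2.80 and at 11.4 and 4.10 UPM in these cells, which should lack sarcomeres. Both falls were thus shared by such cells, and the E9.5 SHF levels of Actc1 and Tnnc1, on which the Acta2 share rests in part, were near the epithelial ones.

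Muscle-gated cells gave 1 member of 8 that rose, Des from 26.9 to 70.0 UPM, against 8.39% of all genes, and 3 that fell (5.04%): Myl7 from 46.4 to 8.38 UPM (-2.76), Myl4 from 46.4 to 18.9 UPM (-1.59) and Tpm1 from 434 to 265 UPM (-1.004). Here Des passed the UMI minimum only through E9.5 (22 UMIs at E8.5 and 468 at E9.5). In the mesenchyme gate 1 of 18 rose (7.14%), again Des, from 11.3 to 34.5 UPM (1.29), and 8 fell (5.84%), led by Tnnt2 from 10.3 to 1.27 UPM (-3.34), Myl4 from 18.2 to 3.09 UPM (-2.87), Myl7 from 41.9 to 7.25 UPM (-2.84), Myl3 from 3.95 to 0.812 UPM (-2.60) and Tnnc1 from 9.45 to 2.23 UPM (-2.40). Myl7 also stood at 50.1 and 11.5 UPM in endothelial-gated and at 121 and 29.1 UPM in epithelial-gated cells of these libraries, so the lower value at E9.5 was shared by cells that should lack it. Des thus rose in all 4 gates, and it stood at 7.79 and 14.1 UPM in endothelial-gated and at 3.79 and 17.02 UPM in epithelial-gated cells of Ctrl E8.5 and E9.5.

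Of the 60 other sarcomere and contractile genes, 25 were tested by stage in the heart gate. Unc45b, a myosin chaperone (41.6 to 114 UPM, log2 change 1.22), Trim63, a sarcomere-associated ubiquitin ligase (5.20 to 15.9 UPM, 1.38), and Casq1, a calcium store protein of skeletal muscle (13.9 to 59.2 UPM, 1.86) were the top 3 of 5 that rose, and Ankrd1, a stress-responsive titin-binding protein, was the 1 that fell (1295 to 421 UPM, -1.85). Unc45b, Trim63 and Casq1 passed the UMI minimum only through E9.5. Against mesenchyme, 6 of 13 were higher in the heart gate at E8.5, with Ankrd1, Cryab and Fhl1 on top, and 23 of 31 at E9.5, with Trim55, Lmod3 and Xirp1 on top, each on 1 UMI in mesenchyme. Trim55, Lmod3 and Xirp1 thus passed the UMI minimum only through the heart gate. Actn3 was lower there at E9.5 (0.867 against 2.08 UPM).

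The number of heart-gated cells differed between genotypes in opposite directions at the 2 stages. At E8.5 the heart gate held 2.23% (1.59% to 3.13%) of Ctrl and 4.50% (3.42% to 5.89%) of cKO cells, a difference of 2.26 percentage points (0.858 to 3.80). At E9.5 it held 3.69% (3.22% to 4.22%) and 1.98% (1.66% to 2.35%), a difference of -1.71 points (-2.33 to -1.11). The median UMI count was 23883 in cKO E8.5 against 17223 in Ctrl E8.5, and the E8.5 difference was 0.217 points when cells were thinned to 10000 UMIs and 0.348 with 1 more marker required. The E9.5 difference was -0.494 points when cells meeting more than 1 gate were left out.

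Within the heart gate, members were lower as a group in cKO E8.5 than in Ctrl E8.5, but few passed the 2-fold threshold. Of 27 tested, 23 lay below the median of all genes, with a member median of -0.48 on the log2 scale after centring. Only Myl2 was called: it was higher in cKO (316 against 158 UPM, centred log2 ratio 1.02, 0.68 to 1.36), against 2.60% of genes called higher, and 0 members were called lower, against 0.935%. This call ended with barcodes up to 2 times the median depth (0.93) and with a minimum of 20 UMIs (0.99), and the ratio turned to -0.37 in the 8 and 9 cells that met exactly 1 gate. Cnn1 came nearest on the lower side (92.4 against 180 UPM, -0.95, -1.35 to -0.55). Myl7 (3459 against 5322 UPM), Tpm1 (2300 against 3536 UPM) and Tnnt2 (1008 against 1736 UPM) were lower without being called, while Actc1 was nearly equal (2047 against 2138 UPM). The summed level of the heart markers that formed the gate was also lower in cKO E8.5, 679 against 929 UPM, and fewer of its cells drew at least 1% of their UMIs from members, 15 of 49 against 19 of 32. Over thinned cells, the 90th percentile of the members' share was 6.03% in cKO and 5.96% in Ctrl E8.5. Over 5% were 8 of 47 and 8 of 30 cells. The sums alone cannot tell fewer strongly expressing cells from less RNA per cell, and the part of the gate's makeup was not tested. Thinned cells with a UMI of Tpm2 numbered 22 of 47 (interval of the share 32.1% to 61.9%) in cKO E8.5 and 27 of 30 (73.5% to 97.9%) in Ctrl E8.5 heart-gated cells.

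At E9.5 the heart gate gave 34 tested members, of which 0 were called higher, against 1.88% of all genes, and 1 was called lower, against 2.16%. The median of all genes here was -0.20 before centring, and cKO E9.5 was counted on another gene table. Over all genes 46.6% of calls were higher in cKO with centring and 21.9% without it. Acta1 was the one called (101 against 235.5 UPM, -1.02, -1.23 to -0.81). Just outside stood Tnnt1 (20.7 against 45.1 UPM, -0.93) on the lower side and Pln (51.1 against 30.3 UPM, 0.95) on the higher. Myl2 again leaned higher (165 against 105 UPM, 0.85, 0.64 to 1.06), without a call. Myl7, Myl4, Myh7 and Tnni1 had centred log2 ratios from 0.01 to 0.05, while Myl9 (-0.75), Des (-0.78), Mylk3 (-0.71) and Nebl (-0.68) were lower without a call, and all 4 smooth muscle genes and all 5 actins and tropomyosins tested lay below the median. Of the other pathway genes, 15 were tested at E8.5, where Ankrd1 (325 against 1295 UPM, -1.98) and Tmod1, which caps thin filaments (26.3 against 62.4 UPM, -1.23) were lower, and 27 at E9.5, where Casq1 (20.3 against 59.2 UPM, -1.35) and Trim55 (10.1 against 27.5 UPM, -1.24) were lower. None was called higher at either stage. At E9.5 Casq1 and Trim55 passed the UMI minimum only through Ctrl.

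**Figure D5:**
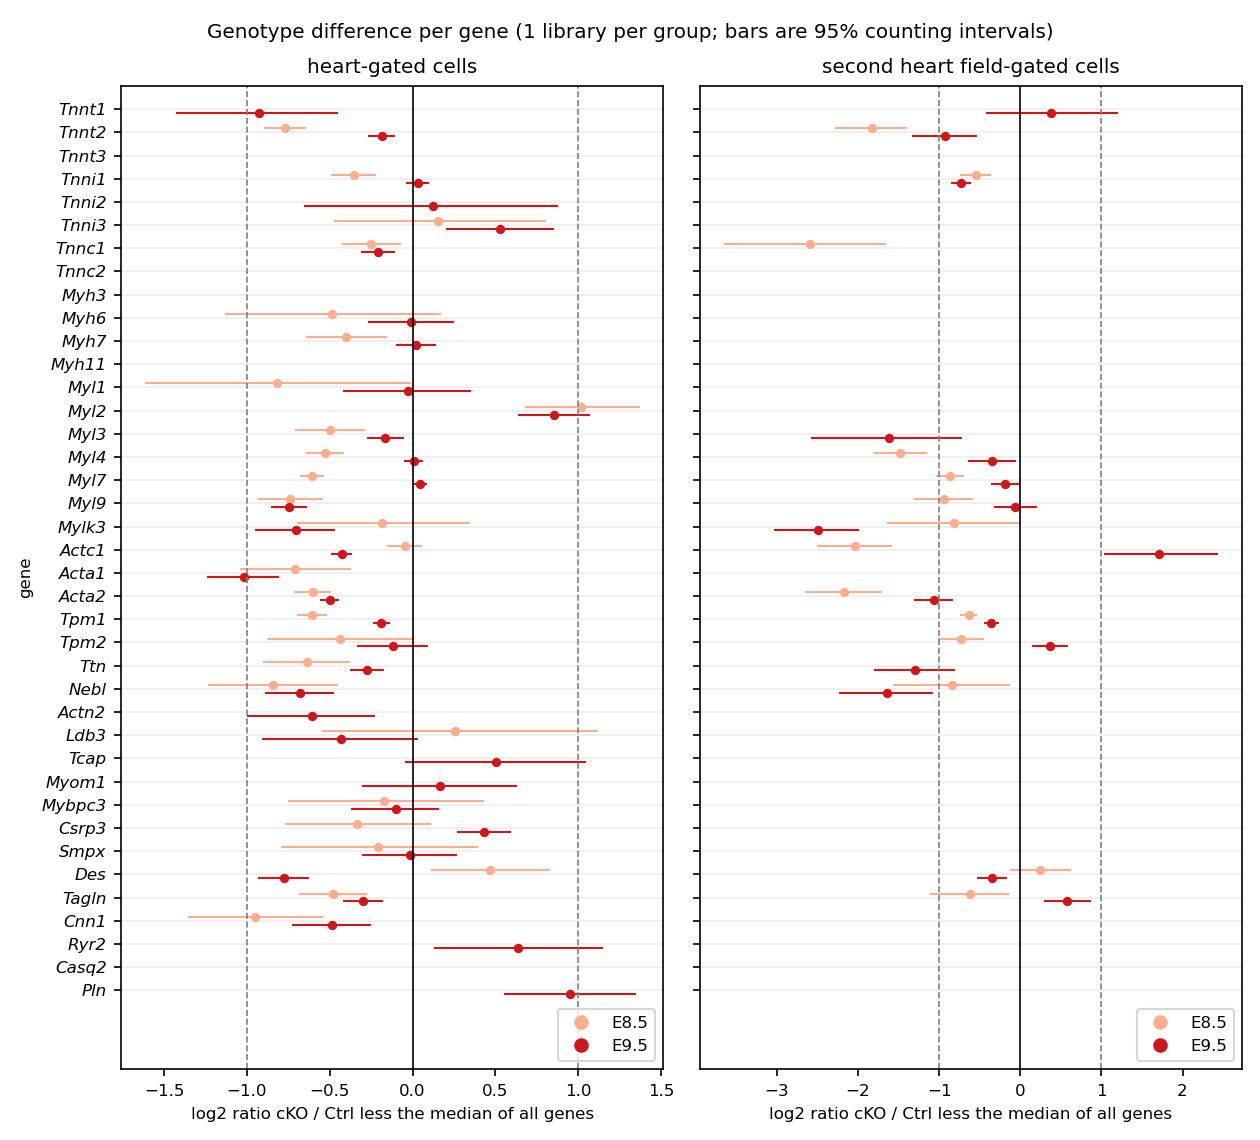
Log2 ratio of cKO to Ctrl for each tested member, less the median of all genes, in heart-gated (left) and SHF-gated cells (right), at E8.5 (light) and E9.5 (dark), with 95% counting intervals and dashed lines at the 2-fold threshold. Most heart values lie between the dashed lines, with Myl2 at 1.02 at E8.5 and Acta1 at -1.02 at E9.5, and the SHF values reach -2.60 for Tnnc1 at E8.5 and -2.49 for Mylk3 at E9.5.

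SHF-gated cells showed larger genotype differences. At E8.5, 5 of 14 members tested were lower in cKO, against 0.516% of all genes, and 0 were higher, against 1.56%. They were Tnnc1 (2.80 against 16.7 UPM, -2.60, -3.64 to -1.67), Acta2 (12.8 against 57.0 UPM, -2.17, -2.64 to -1.72), Actc1 (13.5 against 54.6 UPM, -2.03, -2.49 to -1.59), Tnnt2 (15.6 against 54.9 UPM, -1.83, -2.27 to -1.41) and Myl4 (29.4 against 80.85 UPM, -1.48, -1.80 to -1.16), with Myl9 (-0.94) nearest outside, and 13 of the 14 lay below the median of all genes. The 2 Ctrl cells described above weighed on all 5: without them the Ctrl levels were 11.4, 33.4, 21.4, 31.4 and 50.3 UPM, still above cKO but less than 2-fold so for Actc1 and Myl4. In cKO E8.5 no SHF-gated cell drew 1% of its UMIs from members. Some of these genes were also lower in endothelial-gated cells of cKO than of Ctrl E8.5, which should lack sarcomeres. There Tnnc1 stood at 5.89 against 10.0, Acta2 at 8.25 against 15.6 and Actc1 at 4.72 against 14.5 UPM. Tnnt2 was at 4.72 against 10.0 UPM, while Myl4 was equal (18.9 and 18.9 UPM). Without the 2 cells, Tnnc1 in the Ctrl SHF gate was thus near this endothelial level. All 5 calls ended when 1 marker fewer was required for each gate, an alternative chosen after seeing the data that gave 0 lower and 1 higher, with Actc1 at 0.21. Heart markers summed to 63.6 UPM in cKO and 84.6 UPM in Ctrl SHF-gated cells, and their part was not tested. None of the 11 other pathway genes tested was called.

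At E9.5, 5 of 16 members tested in the SHF gate were lower in cKO, against 2.40% of all genes, and 1 was higher, against 2.69%. Mylk3 was lower by the most (6.64 against 43.5 UPM, -2.49, -3.02 to -2.00), and 15 of 288 thinned cKO cells (5.21%, 2.94% to 8.44%) had a UMI of it against 66 of 241 Ctrl cells (27.4%, 21.9% to 33.5%), where epithelial-gated cells of Ctrl E9.5 gave 45 of 715 (6.29%). Nebl (6.14 against 22.3 UPM, -1.64), Myl3 (2.49 against 8.88 UPM, -1.61), Ttn (8.79 against 25.1 UPM, -1.29) and Acta2 (40.6 against 99.2 UPM, -1.06) followed, with Tnnt2 (15.1 against 33.6 UPM, -0.93) nearest outside. Mylk3 (40 cKO and 201 Ctrl UMIs) and Nebl (37 and 103) passed the UMI minimum only through Ctrl, where they were higher. In epithelial-gated cells Mylk3 (3.35 against 7.59 UPM) and Nebl (6.93 against 11.6 UPM) were also lower in cKO. Myl3 (9.32 against 2.12), Ttn (7.89 against 3.62) and Acta2 (17.9 against 7.25 UPM) were higher in cKO there. In that gate 1 of 208 cKO cells held 15.6% of the member UMIs and 79 of 175 Myl7 UMIs. The levels of Nebl, Myl3, Ttn and Acta2 without it were not measured. With that cell included, the cKO SHF levels of Nebl and Myl3 lay below the epithelial ones. Tnni1 stood at 195 against 376 UPM without a call, with a UMI in 54.9% (48.9% to 60.7%) against 81.3% (75.8% to 86.0%) of thinned cells. Actc1 was the one higher (14.6 against 5.20 UPM, 1.71, 1.05 to 2.43), but 1 cKO cell held 35 of its 88 UMIs, and without it the level was 8.82 UPM. With 24 Ctrl UMIs, Actc1 passed the minimum only through cKO. Heart markers summed to 63.7 UPM in cKO and 172 UPM in Ctrl in this gate, and among regulators the cardiac transcription factors Hand1 (5.31 against 22.5 UPM, -1.86) and Gata4 (5.97 against 15.2 UPM, -1.12) were lower too. Of 15 other pathway genes, Pdlim3 (7.30 against 24.3 UPM, -1.51) and Fhl1 (19.4 against 62.4 UPM, -1.46) were lower and none was higher. The SHF markers that formed the gate summed to 567 UPM in cKO and 919 UPM in Ctrl, and mesenchyme markers to 601 and 457 UPM. The part of this difference in makeup was not tested. In Ctrl E9.5, 2 cells with at least 1% of their UMIs from members held 85 of 458 Acta2 UMIs and 20 of 116 Ttn UMIs but 2 of 201 Mylk3 UMIs, and without them Acta2 was at 81.2, Ttn at 20.9 and Mylk3 at 43.3 UPM.

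In muscle-gated cells 0 of 5 members tested were called at E8.5, against 1.76% of all genes higher and 0.568% lower. At E9.5, 1 of 11 was higher, against 2.71%, and 0 were lower, against 2.75%: Tagln stood at 12.5 UPM in cKO and 4.79 UPM in Ctrl (1.64, 0.998 to 2.31), while Tnnt1 (24.5 against 15.0 UPM, 0.96) lay just outside. Tagln in mesenchyme-gated cells was 92.8 against 59.7 UPM in the same libraries. It was 11.7 against 6.90 UPM in epithelial-gated cells, near the muscle-gated levels, and 6.03 against 6.88 UPM in endothelial-gated cells. In the muscle gate Tagln passed the UMI minimum only through cKO (60 UMIs, against 32 in Ctrl). Fhl1 was the 1 of 13 other pathway genes called, and it was lower (19.0 against 66.0 UPM, -1.54).

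In mesenchyme-gated cells of E8.5, 5 of 13 members were lower in cKO, against 0.513% of all genes, and 0 higher, against 1.78%: Myl4 (6.53 against 18.2 UPM, -1.497), Myl7 (20.1 against 41.9 UPM, -1.08), Tnnc1 (4.68 against 9.45 UPM, -1.03), Acta2 (25.1 against 50.2 UPM, -1.01) and Tnni1 (9.46 against 18.7 UPM, -1.004). Myl7 was also lower in cells that should lack sarcomeres, at 23.6 against 50.1 UPM in endothelial-gated and 26.7 against 121 UPM in epithelial-gated cells, but Myl4 was equal in endothelial-gated cells (18.9 and 18.9 UPM) and Tnni1 was higher in cKO there (24.8 against 16.7 UPM). Myl4, Myl7, Tnnc1 and Tnni1 in mesenchyme were near or below the endothelial levels, while Acta2 lay above the 15.6 and 8.25 UPM of endothelial-gated cells. At E9.5, 4 of 22 were higher, against 4.43%, and 1 was lower, against 2.05%. Tnni2 (0.786 against 0.228 UPM, 1.98), Tnni1 (16.6 against 7.58 UPM, 1.33), Tnnt3 (4.13 against 2.11 UPM, 1.17) and Ttn (1.44 against 0.761 UPM, 1.12) were the higher ones, against 0.956, 14.1, 17.2 and 7.89 UPM in epithelial-gated and 0, 13.2, 11.5 and 0 UPM in endothelial-gated cells of cKO E9.5. In that epithelial gate 1 of 208 cells held 15.6% of the member UMIs. Tnnt3 in mesenchyme was thus below both, and Tnni1 slightly above both, while Tnni1 in endothelial-gated cells was lower in cKO (13.2 against 22.7 UPM). Over all genes 68.3% of calls were higher in cKO with centring and 47.1% without it. Acta1 was the lower one (0.262 against 1.01 UPM, -1.76), and 16 of its 40 Ctrl UMIs lay in the 10 cells with at least 1% member UMIs. Of the other pathway genes, 1 of 15 was lower at E8.5 (Jph1) and 2 of 26 were higher at E9.5 (Unc45b and Cryab).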

How the data were processed

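The deposited count values are UMI counts per gene and cell, which the authors made with Cell Ranger (version 3.1.0 per the labels and 3.0.2 per the file header of the E8.5 tables) and deposited as filtered matrices. Reads were assigned by 3′ end, so they do not cover transcripts evenly. The cKO E9.5 table lists 31053 genes and the others 27998, and the 27514 identifiers they share were used. The members and the other gene lists were chosen with earlier results of these data known. Gate thresholds were set after the number of cells per gate had been seen and before members were read by gate. Doublets were not called. UMIs were summed per library and gate. Genes with at least 50 UMIs over both groups were tested, and a log2 ratio past 1 after subtracting the median of all tested genes was called. In every comparison a gene could thus pass the minimum through its higher group alone. Calls of such genes are a description and no test. A sum of 0 was given a floor of 3 UMIs. Ratio intervals came from the exact conditional binomial, shares from Wilson or Clopper-Pearson intervals. All cover counting error only, and with 1 library per group no p-value was computed. By a fixed rule, up to 5 called members with the largest and up to 5 with the smallest log2 ratio and the member nearest the threshold on either side were named, with up to 3 other pathway genes in each direction. Members not called are named by role. Alternatives were the gate thresholds, cells meeting exactly 1 gate, thinning, depth limits, the UMI minimum, weighting cells alike, TMM (edgeR 4.0.16) and no centring. Scripts ran in Python 3.11.15 with numpy 2.4.6, scipy 1.17.1 and pandas 2.3.3 and were tested on simulated data. Promoters came from RefSeq (GRCm38.p6). 1 item is not reported here.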

Additional observations from a re-analysis of the deposited data

Results flagged for a closer look

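Actc1 in SHF-gated cells moved in opposite directions at the 2 stages: the centred log2 ratio of cKO to Ctrl was -2.03 at E8.5 and 1.71 at E9.5. In Ctrl E8.5, 2 cells held 98 of its 160 UMIs, and in cKO E9.5, 1 cell held 35 of 88. Tnni1 in mesenchyme-gated cells did likewise, at -1.004 at E8.5 and 1.33 at E9.5. With 1 library per group, neither difference between stages was tested.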

How the results depend on the processing

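No paired analysis was possible because each group is 1 library and no result comes from a test over samples. Of the main counts and shares, 236 values stayed and 76 moved over all alternatives, and TMM and a minimum of 5000 UMIs per cell moved none. With 1 more marker per gate, members higher were 0 in muscle against mesenchyme at E8.5, and by genotype 2 in heart E8.5, 1 in heart E9.5 (0 lower) and 0 in muscle E9.5, with 3 lower in mesenchyme E8.5 and 0 in mesenchyme E9.5, and the heart share at E8.5 differed by 0.348 points. With exactly 1 gate met, heart E8.5 gave 0 higher and 12 lower on 8 and 9 cells, Myl2 reversed to -0.37, heart E9.5 gave 1 higher and 0 lower, muscle E9.5 3 higher, the stage comparison 0 higher and 4 lower in heart and 0 higher in muscle, and the heart shares differed by 0.268 (E8.5) and -0.494 points (E9.5). Thinning gave 2 higher in heart E8.5, 2 higher and 2 lower in heart E9.5, 2 lower in SHF E9.5, 0 lower in mesenchyme E8.5, 1 higher and 0 lower in mesenchyme E9.5, by stage 4 higher and 0 lower in heart, 0 higher and 1 lower in muscle and 5 lower in mesenchyme, 0 higher in muscle against mesenchyme at E8.5, and 0.217 points. Barcodes up to 2 times the median depth gave 0 higher and 1 lower in heart E8.5, 1 higher and 0 lower in heart E9.5 and 3 higher in muscle E9.5. A minimum of 20 UMIs gave 0 higher and 2 lower in heart E8.5, 3 higher in muscle E9.5 and in SHF E9.5, 10 lower in SHF E8.5, 9 in mesenchyme E8.5, by stage 2 lower in heart, 5 in muscle and 7 in SHF, and 6 (muscle E9.5) and 13 (SHF E8.5) higher than mesenchyme. Weighting cells alike gave 2 lower in heart E8.5, 1 higher and 2 lower in heart E9.5, 4 higher in muscle E9.5, 3 lower in mesenchyme E8.5 and 0 higher by stage in muscle. No centring gave 2 lower in heart E9.5, 3 lower in mesenchyme E8.5, 2 higher in mesenchyme E9.5, by stage 2 higher in mesenchyme and 4 higher and 2 lower in SHF. With 1 fewer marker per gate, an alternative chosen after seeing the data, SHF E8.5 gave 1 higher and 0 lower, SHF E9.5 0 and 3, muscle E8.5 1 and 1, muscle E9.5 2 and 1, mesenchyme E9.5 2 higher, the stage comparison 9 higher and 0 lower in heart, 4 higher in SHF and 5 lower in muscle, and 7 (muscle E9.5), 2 (SHF E8.5) and 8 (SHF E9.5) higher than mesenchyme. In that setting Actc1 reversed in SHF E8.5 to 0.21 by genotype and to -0.34 against mesenchyme, and Tnnc1 in SHF E9.5 to -0.0402 against mesenchyme. The cause of these moves was not tested.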
